A study of Mus musculus with 2 samples.

Results

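The Slc25 family is the set of mitochondrial carriers, and its members were taken as every gene whose annotated symbol is Slc25a followed by a number. Of 47 such genes in the annotation, 42 had reads in at least one library, among 18177 annotated genes with reads in all, and they were represented by 324 transcript models in replicate 1 and 339 in replicate 2. The RNA came from adrenal glands of male mice of the B6CASTF1/J hybrid strain, aged 14 days and with no treatment or engineered allele named. The single group holds 2 libraries of long-read RNA sequencing, in which 1 read is meant to cover 1 transcript molecule. The labels carry the note "3x Males" and do not say more about pooling. They number the libraries as biological replicates of separate biosamples and name a different set of males for each biosample, but the library descriptions name the same set for both and the donor entry is shared. Whether the libraries came from different animals is thus not settled by the labels, and the p-values measure only the spread from counting between these libraries, which may be technical. All comparisons below are therefore between these libraries, with no contrast of conditions.

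Carriers of this family are small proteins of 3 repeated parts that span the inner mitochondrial membrane and exchange or import nucleotides, phosphate, carboxylates, amino acids, cofactors, fatty acyl groups and metal ions. They are encoded in the nucleus, made in the cytosol and mostly inserted through the TIM22 complex, and a few sit in the peroxisome or the outer membrane. The adrenal cortex makes steroids partly inside mitochondria, where the cholesterol side chain is cut with electrons from NADPH, and it is rich in mitochondria, as is the brown fat that surrounds the gland in young mice.

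Replicate 1 held 964815 reads and replicate 2 held 985101 reads once spike-ins were set aside, so 1 read corresponded to 1.04 and 1.02 reads per 1000000 (CPM). Where a gene had no read, its level could still have been up to 3.11 CPM in the first library and 3.05 CPM in the other, a limit of 3 reads that covers counting error only. The 8 cortical markers summed to 40872 and 40797 CPM. They ranged from Cyp11a1, the side-chain cleavage enzyme, at 15606 and 18158 CPM, to Mc2r at 34.2 and 33.5 CPM. Between the libraries, Cyp11a1 passed the test as higher in replicate 2, and 3 others passed as higher in replicate 1. Markers of other cells were present as well: all 8 fat markers had reads and summed to 10743 and 10525 CPM, and the 7 erythroid markers summed to 14576 and 14495 CPM. The 12 hepatocyte markers were the list that differed most, with sums of 795 and 16595 CPM, the higher in replicate 2, and all 12 passed the test between the libraries. Over all annotated genes tested, 9.17% passed in either direction. In such bulk tissue, fewer cells of a type and less RNA per cell cannot be told apart.

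The family as a whole took 6107 reads in replicate 1 and 5860 in replicate 2, or 6330 and 5949 CPM, a mean of 6139 ± 269 CPM (SD, n = 2). That is 0.633% and 0.595% of all reads. A few carriers held most of it. The 3 most abundant members took 59.3% of the family's reads in replicate 1 and 61.3% in replicate 2. At least 100 CPM was reached by 12 members in replicate 1 and 11 in replicate 2, while 20 and 23 members lay between 10 and 100 CPM. Because each read stands for 1 molecule, the levels are not divided by transcript length, although long transcripts are less often read whole.

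**Figure D1:**
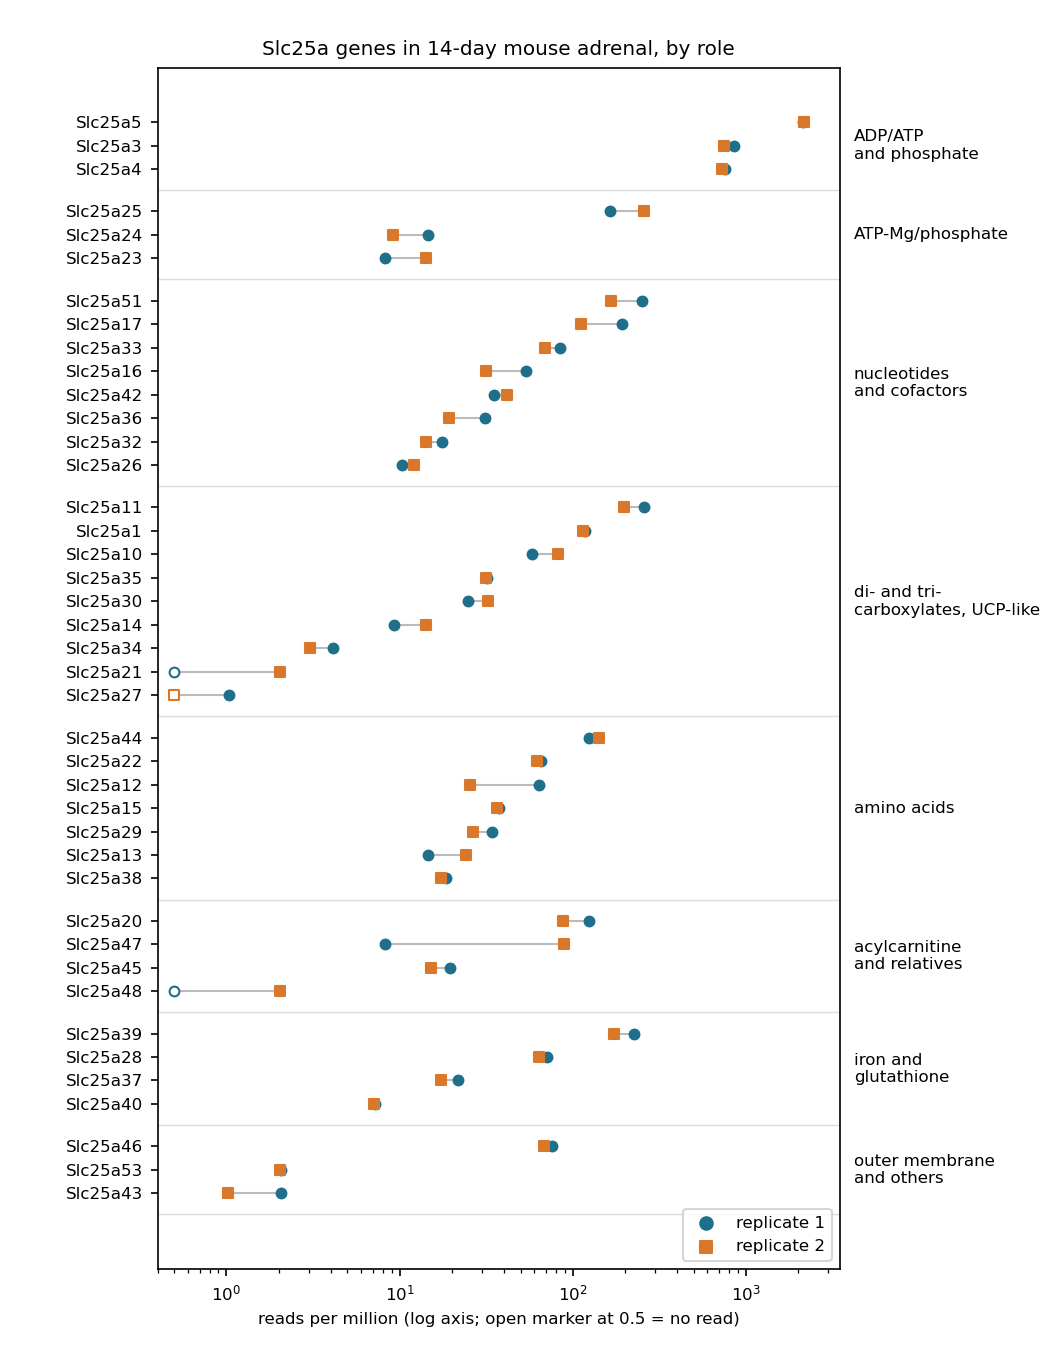
Level of 41 of the 42 Slc25a genes with reads in CPM (log axis), grouped by the substrate or role of the carrier, with a circle for replicate 1 and a square for replicate 2. Slc25a5, Slc25a3 and Slc25a4 stand above all other members in both libraries, and the widest gap between the markers is that of Slc25a47, at 8.29 and 89.3 CPM.

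The ADP/ATP and phosphate carriers supply the ATP synthase with its substrates and export its product. Slc25a5, the ADP/ATP carrier of growing and many other cells, lies at chrX:36795651-36798807 on the plus strand (mm10) and had 2139 CPM in replicate 1 and 2173 CPM in replicate 2. Slc25a3, the phosphate carrier, which also brings copper into the matrix, lies at chr10:91116574-91124059 on the minus strand and had 858 and 746 CPM. Slc25a4, the ADP/ATP carrier best known from heart and skeletal muscle, lies at chr8:46206797-46211284 on the minus strand and had 756 and 728 CPM. None of these 3 genes passed the test between the libraries. Slc25a5 was above Slc25a3 in both libraries, with 2064 against 828 reads in replicate 1, whereas Slc25a3 and Slc25a4 were close to each other, at 735 and 717 reads in replicate 2.

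Reads of Slc25a5 outnumbered those of Slc25a4 by 2.83 times in replicate 1 and 2.99 times in replicate 2. Over reads with a complete splice pattern alone the ratio was 1.42 in each library, with 794 against 561 and 734 against 517 reads, the single-exon reads of Slc25a5 being left out. Markers of muscle were nearly absent: 2 of the 8 muscle markers had reads, Myh1, Myh4, Myh6, Ckm, Tnnt3 and Actc1 had none, and the list summed to 3.11 and 2.03 CPM. The coding sequences of both carriers have 897 bases and are identical at 704 of 902 alignment columns, or 78.0%. The stretch of exon 3 that encodes the arginine- and methionine-rich signature of ADP/ATP carriers shows how close they are, and also that single bases tell the reads apart. It is printed 5′ to 3′ from the GENCODE M21 transcripts with the signature in capitals, at chr8:46208405-46208446 on the minus strand for Slc25a4 and chrX:36797828-36797869 on the plus strand for Slc25a5.
Slc25a4: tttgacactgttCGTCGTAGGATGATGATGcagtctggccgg
Slc25a5: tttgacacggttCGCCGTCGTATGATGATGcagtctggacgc
The annotated Slc25a5 pseudogene Slc25a5-ps had 1 and 2 reads. The third ADP/ATP carrier gene of the mouse, Slc25a31, which is made in germ cells, had no read, and of the testis markers Prm1 and Tnp1 had none.

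The ATP-Mg/phosphate carriers change the size of the matrix adenine nucleotide pool in response to calcium. Slc25a25 was the one member of this group at a high level, with 158 reads in replicate 1 and 253 in replicate 2, or 164 and 257 CPM. Its relatives were more than 10 times lower: Slc25a24 had 14 and 9 reads, Slc25a23 had 8 and 14, and Slc25a41 had none.

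Carriers of nucleotides and cofactors formed the largest group after the ADP/ATP and phosphate carriers, with all 9 annotated genes detected and a sum of 966 and 683 CPM. Slc25a51, which carries NAD into mitochondria, had 250 and 166 CPM. Slc25a17, the peroxisomal member that carries coenzyme A, FAD and NAD, had 193 and 112 CPM. Both were higher in replicate 1. The pyrimidine nucleotide carrier Slc25a33 had 85.0 and 69.0 CPM, while its relative Slc25a36 had 31.1 and 19.3 CPM. Slc25a16, which is linked to coenzyme A in mitochondria, had 53.9 and 31.5 CPM, and the other 3 genes, Slc25a42, Slc25a32 and Slc25a26, lay between 10.4 and 41.6 CPM over both libraries.

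Among the carriers of di- and tricarboxylates and their uncoupling-protein-like relatives, 9 genes had reads and summed to 506 and 477 CPM. Slc25a11 exchanges oxoglutarate for malate in the malate-aspartate shuttle, and had 258 and 197 CPM. Slc25a1 exports citrate for the cytosolic synthesis of acetyl-CoA, and had 118 and 115 CPM. The dicarboxylate carrier Slc25a10 had 58.0 and 82.2 CPM. The remaining genes of this group were far lower: Slc25a35, Slc25a30 and Slc25a14 lay between 9.33 and 32.5 CPM, and Slc25a34, Slc25a21 and Slc25a27 each had fewer than 10 reads over both libraries. Beside them, Ucp1, the uncoupling protein of brown fat whose protein is of the same family but whose symbol is not, was at 1949 and 2065 CPM, close to Slc25a5. Ucp2 had 139 and 105 CPM.

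The amino acid carriers summed to 359 and 333 CPM over 7 genes with reads. Slc25a44, which brings branched-chain amino acids into mitochondria and is known from brown fat, led with 124 and 141 CPM. The glutamate carrier Slc25a22 had 65.3 and 61.9 CPM. Both aspartate-glutamate exchangers were found: Slc25a12 at 64.3 and 25.4 CPM and Slc25a13 at 14.5 and 24.4 CPM. Which of them was the higher therefore rests on replicate 1, since in replicate 2 they had 25 and 24 reads. The ornithine carrier Slc25a15 had 36 reads in each library, Slc25a29, a carrier of basic amino acids, had 33 and 26, and Slc25a38, the glycine carrier needed for heme synthesis, had 18 and 17. Slc25a18 and Slc25a2 had no reads.

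Slc25a20, the carnitine-acylcarnitine carrier that fatty acid oxidation depends on, had 124 and 88.3 CPM. Of the carriers near it in sequence, Slc25a45 had 19 and 15 reads and Slc25a48 had 0 and 2, and Slc25a47 is described with the differences between the libraries. In the iron and glutathione group, Slc25a39, which carries glutathione, had 227 and 174 CPM, and its relative Slc25a40 had 7 reads in each library. Mitoferrin 2, Slc25a28, had 71.5 and 64.0 CPM and mitoferrin 1, Slc25a37, the form of developing red cells, had 21.8 and 17.3 CPM. This order held although erythroid transcripts were plentiful, with Hba-a1 at 7447 and 7761 CPM and Alas2, which starts heme synthesis in red cells, at 244 and 163 CPM. Slc25a46, which sits in the outer membrane, had 75.7 and 68.0 CPM. In all, 6 members had from 1 to 9 reads over both libraries, among them Slc25a53 with 2 and 2 reads and Slc25a43 with 2 and 1, and 5 annotated members had none.

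The surrounding machinery was measured on the same scale. All 10 genes listed for insertion of carriers through TIM22 had reads, with a sum of 1110 and 1138 CPM, and 1 of the 10 tested was higher in replicate 2 and none in replicate 1. That gene was Timm8b, an intermembrane-space chaperone, at 140 and 203 CPM. The outer-membrane channels Vdac3, Vdac2 and Vdac1, through which most metabolites pass before they reach a carrier, summed to 712 and 630 CPM with no call among 3. Of 17 tested transporters of the inner membrane from other families, 2 were higher in each replicate, and their summed level was 2915 and 2732 CPM. Beside these lists, 4.81% of all annotated genes tested were higher in replicate 1 and 4.35% in replicate 2. Mpc2 of the pyruvate carrier rose from 368 CPM in replicate 1 to 481 CPM in replicate 2.

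The libraries were compared gene by gene with a two-sided exact binomial test, adjusted by the Benjamini-Hochberg method over the 11094 annotated genes with at least 10 reads over both. Of these, 9.17% passed an adjusted p of 0.05. Among the 36 members tested, 6 passed, or 16.7%: 4 were higher in replicate 1, where the share over all genes was 4.81%, and 2 in replicate 2, where it was 4.35%. Over all genes the share called rose with the number of reads, so it is given by read class. The part of read depth in the share of members called was not tested. Of genes with 500 reads or more 37.01% were called, against none of 3 members. For 100 to 500 reads the share was 12.98%, against 4 of 14 members. For 50 to 100 reads it was 6.35%, against 2 of 8 members. For 20 to 50 reads it was 5.22%, against 0 of 10, and for 10 to 20 reads 4.25%, against 0 of 1. On the log2 scale the ratio (replicate 2 to replicate 1) had a median of -0.13 over the members and -0.16 over all tested genes. With the TMM scaling of edgeR the median of all genes moved to 0.00, a shift of over 0.1, and the members called were then 3 in each direction instead of 4 and 2. The share of all genes called was then 7.93%.

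**Figure D2:**
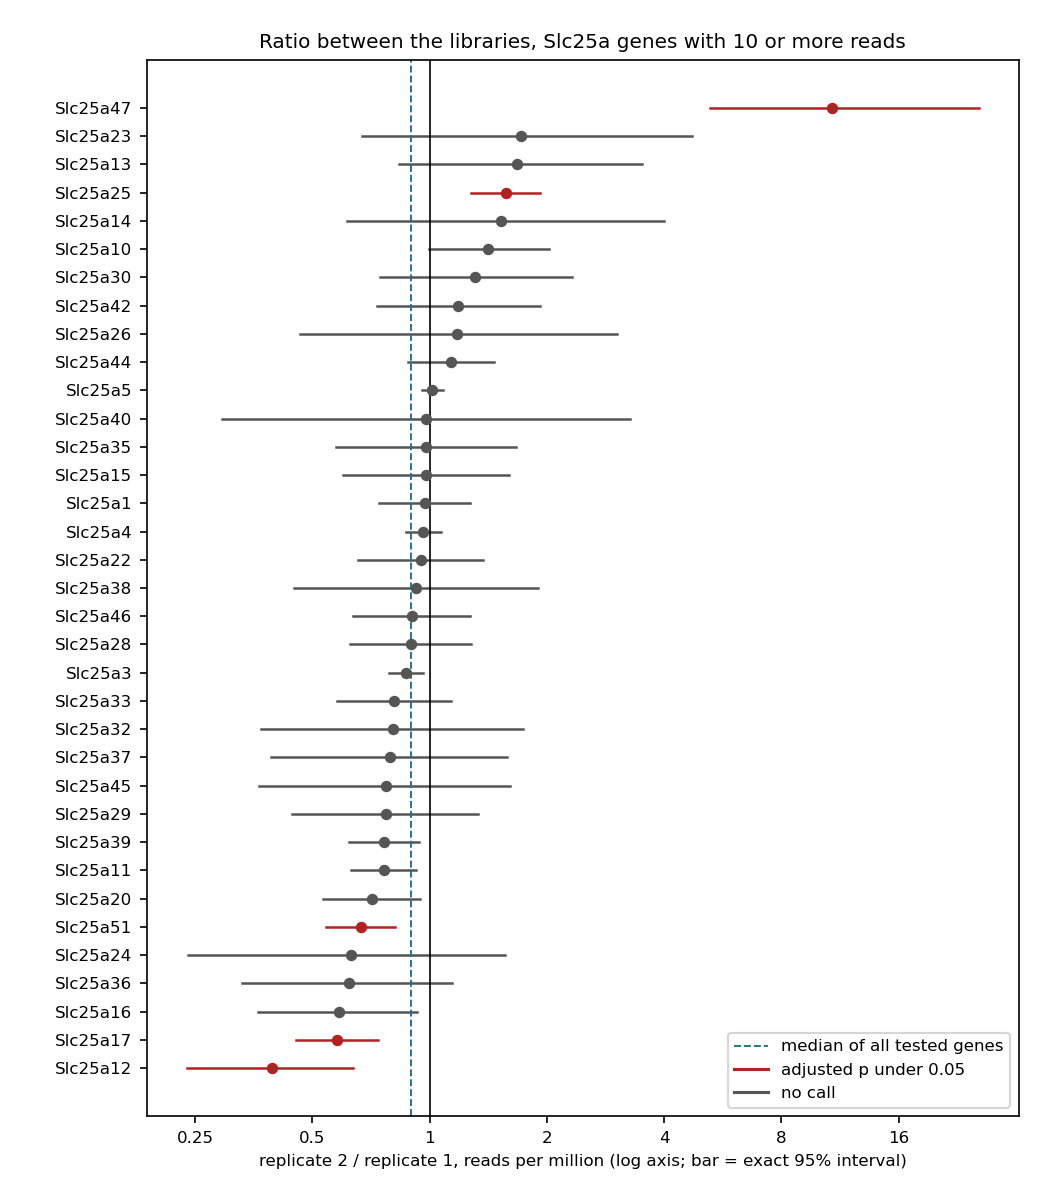
Ratio of replicate 2 to replicate 1 in CPM (log axis) for 35 of the 36 Slc25a genes with at least 10 reads, with exact 95% intervals for counting error and genes that passed an adjusted p of 0.05 in red. Slc25a47 stands alone at 10.8, the other called gene above 1 is Slc25a25 at 1.57, and the dashed line marks the median of all tested genes.

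Slc25a47, at chr12:108836046-108856815 on the plus strand, had 8 reads in replicate 1 and 88 in replicate 2. Its level was 10.8 times as high in replicate 2, with a 95% interval from 5.23 to 25.7 and an adjusted p of 5.78e-16 by the exact binomial test. With known transcripts only it had 2 and 80 reads, a ratio of 40.8 with an interval from 10.9 to 343. This carrier is known as a gene of the liver. The hepatocyte markers moved with it, with 12 of 12 higher in replicate 2: Alb went from 226 to 4392 CPM, Apoa1 from 166 to 2920 CPM and Cps1 from 7.26 to 206 CPM. The part of these cells in the Slc25a47 reads was not tested. The reads also started in different places. Of the reads with a complete splice pattern, 82 in replicate 2 began with the coding first exon of Slc25a47-201 and none with an exon upstream of it, while in replicate 1, 3 began there and 4 began with an upstream exon.

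Slc25a25, at chr2:32414487-32451445 on the minus strand, was the other gene higher in replicate 2, at 1.57 times (95% interval 1.28 to 1.93, adjusted p = 2.64e-04 by the exact binomial test). The gene has 3 alternative first exons that each hold a start codon and join the same exon 2, so the choice among them sets the beginning of the protein. The first exon nearest to exon 2 was used by 102 of 147 reads at this junction in replicate 1 and 188 of 231 in replicate 2, or 69.4% and 81.4%. The farthest, 27273 bases upstream of the nearest by their donor sites, was used by 43 and 40 reads. The middle one had 2 and 2. In CPM the nearest exon thus went from 106 to 191, a ratio of 1.81 with a 95% interval from 1.41 to 2.32, and the farthest from 44.6 to 40.6, a ratio of 0.911 with an interval from 0.577 to 1.43. These intervals overlap, which is not a test of their difference, and the shares of the first exons themselves were not tested. The share of the leading transcript, Slc25a25-203, was 64.6% and 76.6% and did not pass between the libraries. By Fisher's exact test its p was 0.0136 before adjustment and 0.839 after it. A difference in the use of the starts was thus not shown.

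The coding parts of the 3 first exons show that the proteins differ from their start. They are given 5′ to 3′ from the GENCODE M21 transcripts with the start codon in capitals, at chr2:32423794-32423952 for the nearest, chr2:32430529-32430747 for the middle and chr2:32451067-32451324 for the farthest, all on the minus strand of mm10.
nearest: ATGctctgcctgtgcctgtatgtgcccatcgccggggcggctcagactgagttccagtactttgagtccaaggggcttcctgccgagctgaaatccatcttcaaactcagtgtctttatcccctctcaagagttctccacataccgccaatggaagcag
middle: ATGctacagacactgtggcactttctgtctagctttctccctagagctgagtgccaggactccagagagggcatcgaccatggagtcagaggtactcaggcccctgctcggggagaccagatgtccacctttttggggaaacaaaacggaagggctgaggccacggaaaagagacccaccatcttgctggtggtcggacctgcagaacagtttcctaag
farthest: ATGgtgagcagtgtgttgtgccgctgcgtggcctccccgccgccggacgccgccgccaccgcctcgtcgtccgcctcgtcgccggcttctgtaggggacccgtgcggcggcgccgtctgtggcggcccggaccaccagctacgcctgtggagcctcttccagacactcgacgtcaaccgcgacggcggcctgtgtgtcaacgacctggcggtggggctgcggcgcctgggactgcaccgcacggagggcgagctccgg
They have 159, 219 and 258 bases, each a whole number of codons.

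RefSeq promoter windows (GRCm38.p6) were searched on both strands, over the 250 bases before each start, for 5 motifs: the cAMP response element TGACGTCA, the core of the NRF1 motif CGCATGCG, the motif shared by NR5A1 and the ERR receptors TCAAGGTCA, the HNF4A motif CAAAGTCCA and the GC box GGGGCGGGG. Windows were present for 33 of the 42 members with reads, and for 36 annotated members. The nearest start of Slc25a25 held a complete cAMP response element, printed in capitals within the 150 bases before the start at chr2:32424067-32424216. The same stretch before the farthest start, at chr2:32451471-32451620, held none of the 5 motifs. Both are on the minus strand and are shown because nearly all reads at this junction came from these starts.
nearest start: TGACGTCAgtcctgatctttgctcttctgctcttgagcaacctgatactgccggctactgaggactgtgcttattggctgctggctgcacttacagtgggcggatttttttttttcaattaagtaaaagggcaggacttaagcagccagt
farthest start: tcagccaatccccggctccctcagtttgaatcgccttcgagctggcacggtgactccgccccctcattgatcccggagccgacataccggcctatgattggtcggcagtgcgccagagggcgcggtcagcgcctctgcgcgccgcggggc
The element was in the windows of 478 of 27025 genes, or 1.77%, and of 2 of the 36 members, Slc25a25 and Slc25a36. The GC box was found in 11.1% of members and 11.8% of all genes. The other 3 motifs were in no member's window, while the NRF1 core was in 1.75% of all genes, the NR5A1 and ERR motif in 0.422% and the HNF4A motif in 0.451%.

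Of the 4 members higher in replicate 1, Slc25a12, Slc25a17 and Slc25a51 kept their call under every alternative scaling, filter and class of reads tried. Slc25a12, at chr2:71271063-71367749 on the minus strand, had 62 reads against 25, a ratio of replicate 2 to replicate 1 of 0.395 (95% interval 0.238 to 0.638, adjusted p = 0.00148). Slc25a17, at chr15:81318911-81360812 on the minus strand, had 186 against 110, a ratio of 0.579 (interval 0.453 to 0.737, adjusted p = 1.38e-04). Slc25a51, at chr4:45395923-45408766 on the minus strand, had 241 against 164, a ratio of 0.666 (interval 0.543 to 0.816, adjusted p = 0.00144). All 3 p-values are from the exact binomial test, and the intervals stay below 1. With TMM, Slc25a51 kept its call only narrowly, at a ratio of 0.744 (adjusted p = 0.0488 by the same test). The leading transcript of Slc25a12, Slc25a12-206, is 6351 bases long, that of Slc25a51 4433 bases and that of Slc25a17 1724 bases. The part of transcript length in these differences was not tested.

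Of the 42 members with reads, 15 overlap a gene on the other strand, such as Naif1 at Slc25a25 and Gm13641 at Slc25a12, and how the counting used strand is not stated. The other 30 tested members had ratios from 0.584 to 1.71 and no call. Slc25a3 (ratio 0.869, adjusted p = 0.0604), Slc25a11 (0.763, adjusted p = 0.0534) and Slc25a39 (0.765, adjusted p = 0.0787) lay just outside the threshold of the exact binomial test. When ERCC spike-in reads set the scale, all 3 of these passed as well and 9 members were called, 7 of them higher in replicate 1. Over all genes tested, 10.3% were called on that scale. Slc25a5 had a ratio of 1.02 in the main scaling and passed as higher in replicate 2 only with TMM, at 1.13 (adjusted p = 0.00102).

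Reads were next sorted by how completely they matched a transcript. Known, new combinations of known splice sites and new splice sites together are called full-splice reads here, and the rest are truncated or single-exon reads. Over the family 70.9% of reads were full-splice in replicate 1 and 64.8% in replicate 2, against 84.0% and 80.4% over all annotated genes. The gap came with Slc25a5: without it the family stood at 87.4% and 82.4%. Of Slc25a5 reads, 1258 in replicate 1 and 1399 in replicate 2 were assigned to a single-exon model that matches no transcript, which is 61.0% and 65.3% of its reads, while 782 and 714 matched the spliced Slc25a5-201 of 1240 bases. Only 192 of 6033 genes tested, 3.18%, had full-splice shares as low as Slc25a5 in both libraries. Of Slc25a4 reads 22.4% and 26.4% were of this single-exon kind, and larger shares were found in Slc25a44, in Slc25a36 (26.7% and 63.2%, of 30 and 19 reads) and in Slc25a37 (42.9% and 29.4%, of 21 and 17 reads). The level of Slc25a5 by full-splice reads alone, 794 and 734, was thus close to the 780 and 669 of Slc25a3, and Slc25a4 had 561 and 517. The order of these 3 carriers was the same as over all reads, with smaller gaps. Extents of single-exon models are not those of the reads, so where these reads lie within the gene was not measured.

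**Figure D3:**
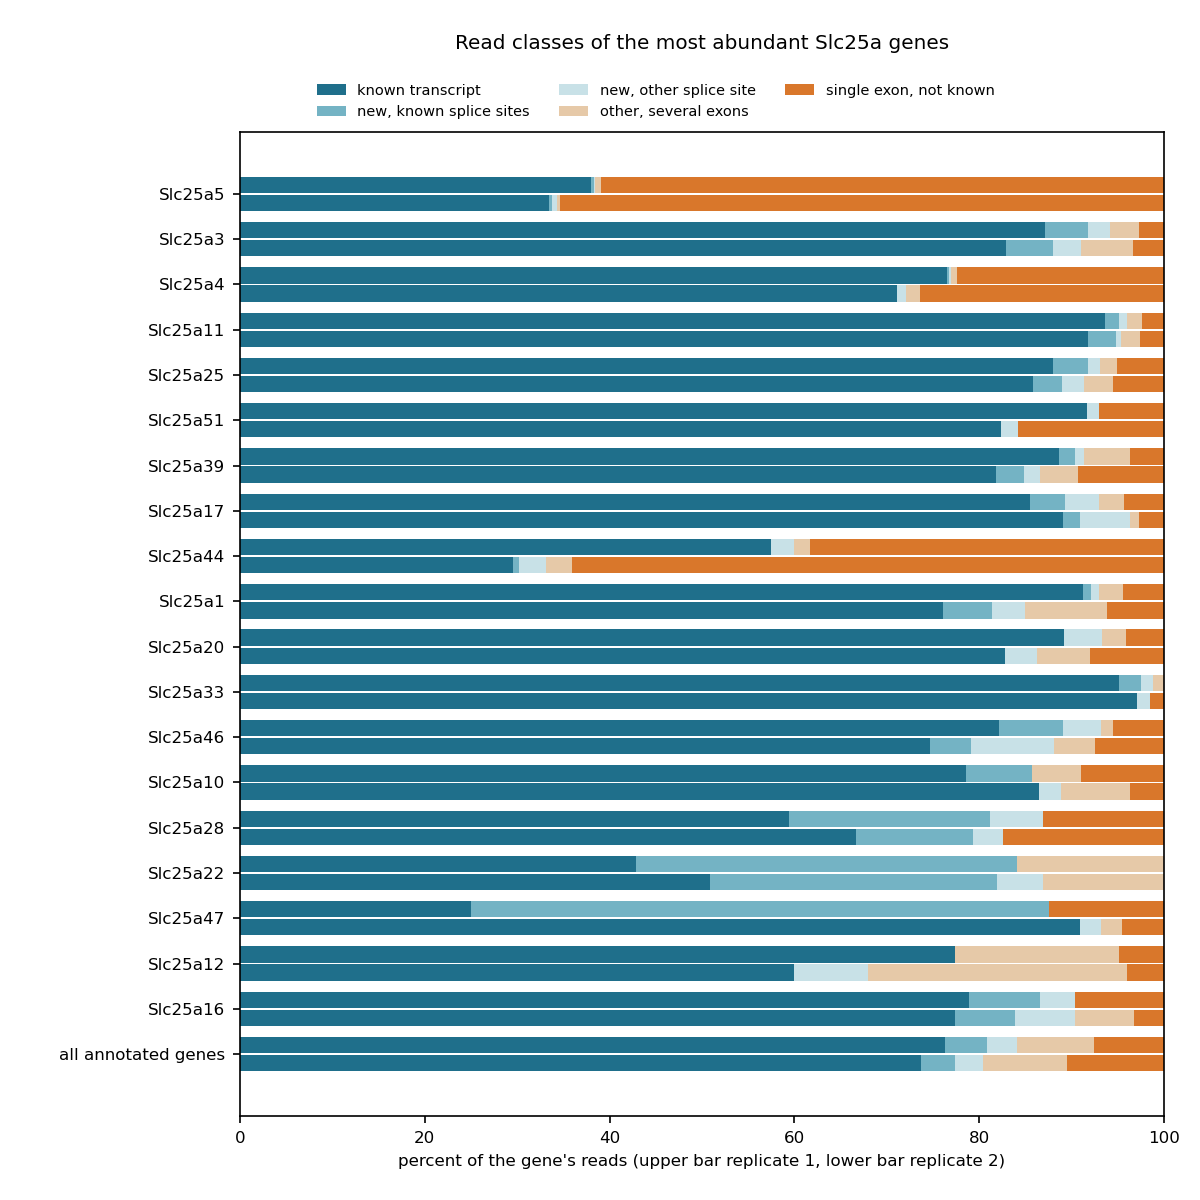
Percent of reads in each class for 19 of the 20 most abundant Slc25a genes and for all annotated genes, with replicate 1 as the upper and replicate 2 as the lower bar. Single-exon reads make up 61.0% and 65.3% of Slc25a5 and 38.3% and 64.0% of Slc25a44, against 7.58% and 10.5% over all annotated genes.

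The share of full-splice reads was compared between the libraries by Fisher's exact test over 6033 genes with at least 20 reads in each, of which 1.21% passed. Of 24 members tested, 1 passed. That was Slc25a44, with 72 full-splice reads of 120 in replicate 1 and 46 of 139 in replicate 2, or 60.0% and 33.1% (adjusted p = 0.00305). Its total reads gave no call (ratio 1.13, 95% interval 0.882 to 1.46), and the reads of its single-exon model, which matches no transcript, went from 46 to 89. The share was lower in replicate 2 for 19 of the 24 members, and for 66.1% of all genes tested. The medians were 90.9% and 86.4% over the members and 90.4% and 87.8% over all genes.

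Within the full-splice reads, most carriers had 1 main transcript. The leading transcript held a median of 88.2% of full-splice reads in replicate 1 and 87.5% in replicate 2 over 23 members tested, against 87.6% and 87.5% over all 4817 genes tested, and it held at least 90% in both libraries for 9 members. It held less than the rest together in Slc25a22 (34.9% over both libraries), Slc25a38 (41.2%) and Slc25a13 (47.1%). Slc25a4-201 held 99.5% and 98.5%, Slc25a5-201 98.5% and 97.3%, Slc25a11-201 97.5% and 96.2%, and Slc25a20-201 95.5% and 96.0%. Fisher's exact test of the leading share between the libraries passed for 0.125% of genes and for no member. Before adjustment 4 members were under 0.05, among them Slc25a25 (adjusted p = 0.839), Slc25a10 (adjusted p = 0.861) and Slc25a1 (adjusted p = 1). A second transcript of at least 10% was found in 11 members with 10 or more full-splice reads.

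**Figure D4:**
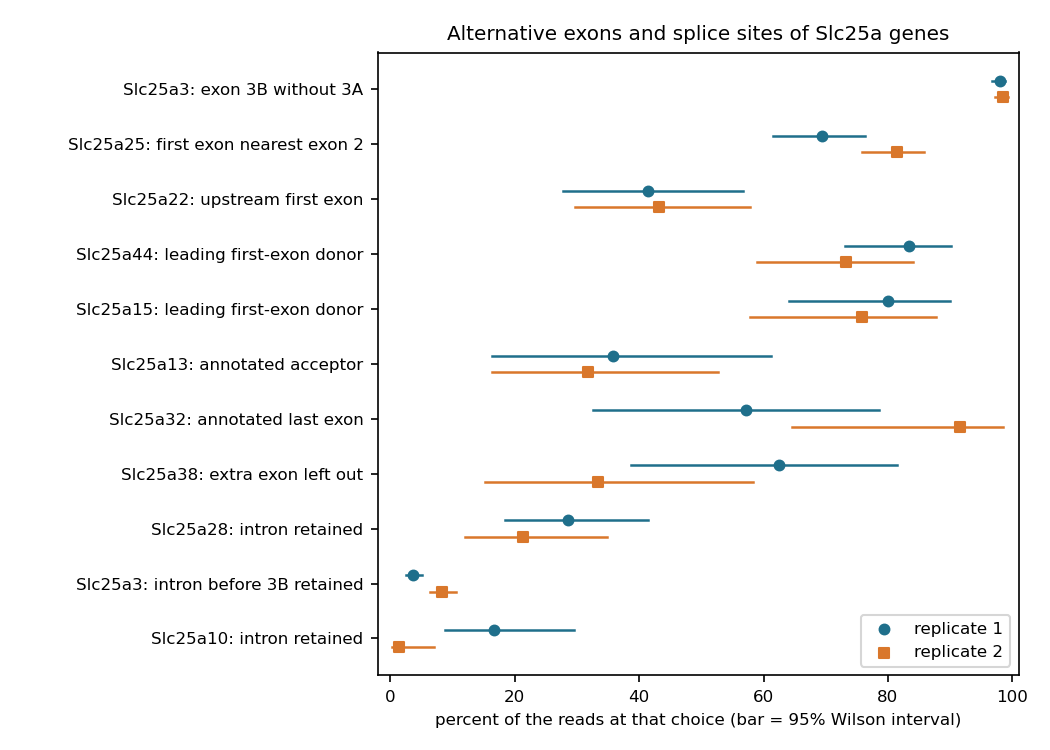
Share of reads that took the named exon, splice site or retained intron at 11 points of choice in Slc25a genes, as percent of the reads at that choice with 95% Wilson intervals, for replicate 1 (circles) and replicate 2 (squares). The intervals of the libraries overlap at every choice shown except the introns of Slc25a3 and Slc25a10, and Slc25a3 is almost wholly of the 3B form at 98.0% and 98.5%.

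Slc25a3 has a pair of mutually exclusive versions of exon 3 that encode alternative segments of the phosphate carrier. The 3A form is known from heart and skeletal muscle and the 3B form from other tissues. Of reads that held either, 728 of 743 in replicate 1 and 611 of 620 in replicate 2 had 3B alone, or 98.0% and 98.5%. Exon 3A without 3B had 1 and 3 reads, 0.293% over both libraries with a 95% Wilson interval from 0.114% to 0.752%. Reads with both exons numbered 14 and 6, and exon 3A, whose 125 bases are not a multiple of 3, shifts the reading frame when it is added to 3B. The exons are given 5′ to 3′ from the GENCODE M21 transcripts, 3A at chr10:91122207-91122331 and 3B at chr10:91121922-91122043 on the minus strand, with capitals for bases that differ or are unpaired between them.
3A: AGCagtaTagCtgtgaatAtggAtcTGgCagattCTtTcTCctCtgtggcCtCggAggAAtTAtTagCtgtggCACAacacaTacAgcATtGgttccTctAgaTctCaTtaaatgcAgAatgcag
3B: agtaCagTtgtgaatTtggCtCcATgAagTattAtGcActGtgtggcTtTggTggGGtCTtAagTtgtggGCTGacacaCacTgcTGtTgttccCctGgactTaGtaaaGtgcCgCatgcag
They share 84 of 128 alignment columns, or 65.6%. All bases of both are coding in the annotation.

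The most abundant unannotated splice pattern of the family also belonged to Slc25a3, with 22 reads in replicate 1 and 27 in replicate 2. In it the intron before exon 3B, chr10:91122044-91123557, was kept, and exon 3A lies inside that intron. Counting truncated reads too, the intron was kept in 27 and 55 reads and spliced in 731 and 614, or 3.56% and 8.22% kept. The 95% Wilson intervals, 2.46% to 5.13% and 6.37% to 10.5%, do not overlap, but this choice was picked after its values were seen and was not tested over all genes. A further choice falls in the 5′ untranslated part: 89 and 97 reads kept the 209 bases between exons 1 and 2, as Slc25a3-203 does, and 679 and 571 spliced them out.

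The second of these patterns was the leading transcript of Slc25a22, at chr7:141429744-141437892 on the minus strand, with 21 and 16 reads against 16 and 18 for Slc25a22-201. They differ in the first exon. At the junction with exon 2, 23 and 18 reads came from the donor at 141435288 and 17 and 19 from the upstream donor at 141437569, each annotated in some transcript, so the exons are known and the combination is not. Over both libraries their shares were 48.2% (95% Wilson interval 37.9% to 58.7%) and 42.4% (32.4% to 53%), and these intervals overlap. The start codon of Slc25a22-201 lies in exon 2, and the choice leaves it in place.

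The third was in Slc25a28, where 15 and 8 reads kept the intron chr19:43665829-43666914 of 1086 bases against 39 and 37 reads of Slc25a28-201. Over all reads there 28.6% and 21.3% kept it (25.2% over both, 95% Wilson interval 17.8% to 34.4%). This is 1 of 2 mitoferrin genes, and the kept intron lies within its coding region.

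The fourth was in Slc25a13, and concerns 3 bases. By the models, exon 9 was joined at an acceptor 3 bases inside the annotated exon 10 in 9 of 14 reads in replicate 1. In replicate 2 this held for 15 of 22 reads, and the annotated acceptor had 5 and 7. The bases left out form a whole codon in Slc25a13-201. Exon 9 ends in the same 3 bases, so the sequence does not show which copy is missing, and the splice site was not tested. The junction is printed from that transcript, with 15 bases on each side and the codon in capitals, exon 9 being chr6:6113938-6114022 and exon 10 chr6:6109937-6110024 on the minus strand.
Slc25a13-201: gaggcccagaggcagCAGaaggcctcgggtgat
The annotated form was thus the rarer, at 33.3% over both libraries, from 36 reads.

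The fifth was in Slc25a14, a relative of the uncoupling proteins on chrX:48623413-48662294. No read of this gene matched a known transcript, and 4 of 9 reads in replicate 1 and 12 of 14 in replicate 2 had 1 pattern of 10 exons that combines annotated splice sites in a way no annotated transcript does. In all, the family had 256 unannotated splice patterns, of which 185, or 72.3%, rested on 1 read and 42 had reads in both libraries.

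Other carriers had 2 used forms at lower depth. In Slc25a44, 3 donor sites of the first exon within 118 bases were joined to the next exon, with 60 and 33 reads at the leading one, 7 and 8 at Slc25a44-203's and 5 and 4 at Slc25a44-204's. In Slc25a15, 7 and 7 reads used a first-exon donor that is not annotated, 482 bases from the annotated one, which had 28 and 22. In Slc25a32, the folate and FAD carrier, 6 reads in replicate 1 and 1 in replicate 2 used an acceptor that is not annotated. It lies 3453 bases downstream of the annotated one, which had 8 and 11. Slc25a38 joined exons directly in 10 and 5 reads and used an acceptor inside that intron, at 120119883, in 6 and 8. The 251 bases from 120120006 to 120120256, which lead to the next exon, were kept in 7 and 6 reads. They were spliced out, which leaves a separate extra exon, in 1 and 5 reads. Slc25a40 had 3 and 3 reads of Slc25a40-202 and 0 and 4 of Slc25a40-201, and Slc25a26 had 5 and 1 of Slc25a26-201 and 0 and 3 of a new combination. Slc25a32, Slc25a38, Slc25a40 and Slc25a26 had under 20 full-splice reads in each library and were not tested. For the annotated acceptor of Slc25a32, drawn as its annotated last exon, the 95% Wilson intervals overlap. They ran from 32.6% to 78.6% in replicate 1 and from 64.6% to 98.5% in replicate 2. For the intron chr11:120497107-120497383 of Slc25a10 they ran from 8.70% to 29.6% kept in replicate 1, with 8 of 48 reads, and from 0.230% to 7.00% in replicate 2, with 1 of 77. That pair did not overlap, and it was chosen after its values were seen.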

How the data were processed

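Long-read RNA sequencing of adrenal gland gave 1 table of read counts per transcript model for each of 2 libraries, with an annotation file of the models. Per the file headers, mm10 was the genome and GENCODE M21 the annotation behind the models, and each model has a TALON class. The deposited counts are whole reads, not normalized. The number of exons and the length of each model are other deposited columns. The aligner was not given in the sources used here, nor were versions and filters. Here, rows were joined to the annotation, spike-ins were set aside, reads were summed per gene and CPM were taken over 964815 and 985101 reads. Genes with at least 10 reads were compared by a two-sided exact binomial test, and shares by Fisher's exact test with at least 20 reads in each library, with Benjamini-Hochberg adjustment over all genes (scipy 1.17.1) and a threshold of 0.05. edgeR 4.0.16 gave TMM factors only. With 1 group of 2 libraries, tests cover counting error between the libraries. Scripts were tested on simulated data. Members, roles and lists were chosen with earlier results of these data known. Named genes were the 20 with the highest mean CPM, those called, those with a second full-splice transcript of at least 10%, those under 10 reads by count and the 5 unannotated patterns with most reads. 1 member is counted in the totals but not reported here by itself. Amino acid sequences were not used here.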

Additional observations from a re-analysis of the deposited data

How the results depend on the processing

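The 6 calls between the libraries, of 36 members tested, became 5 to 9 under other settings, in which the share over all genes also changed. TMM gave 6 of 36 against 7.93% of all genes, and ERCC reads as the scale 9 of 36 against 10.3%. With hepatocyte markers left out of the library size it was 6 of 36 against 8.53%. Known models only gave 5 of 32 against 8.66%, and full-splice models only 5 of 35 against 8.47%. No filter gave 6 of 42 against 4.78%, and at least 50 reads 8 of 25 against 14.5%. No called ratio changed direction in these settings, and 1 call was lost, with TMM, with known models only and with full-splice models only. Over all genes, 47.5% of calls were higher in replicate 2, against 76.7% with TMM and 37.3% with ERCC reads. The summed level of the family, 6139 CPM, was 5432 CPM with known models only and 5328 CPM with full-splice models only. Known models held 66.1% and 60.2% of the family's reads, against 76.3% and 73.7% over all annotated genes. Without Slc25a5 the known share of the family was 80.4% in replicate 1 and 75.6% in replicate 2. The cause of the lower share with it was not tested. With reads in annotated genes as the denominator, 920563 and 933516, the same family reads gave 6456 CPM. Leaving out a replicate gave 5949 to 6330 CPM. The leading-transcript test called no member with minimums of 10 and 50 reads or with known models only. The full-splice test called 1 member, Slc25a44, in each of its settings. No paired analysis was possible because there is only 1 group. Members under 10 reads could not be compared.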
